A study of Mus musculus with 8 samples.

Results

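Neurotrophins are secreted growth factors that keep neurons alive and adjust the strength of their synapses, and the hippocampus is one of the brain regions where they are most studied. The genes described here are 8 members of this system, chosen by name. Bdnf and Ntf3 encode the neurotrophins BDNF and NT-3, and Gdnf encodes a growth factor of another family. Ntrk2 and Ntrk3 encode TrkB and TrkC, the receptors that BDNF and NT-3 prefer, and Ngfr encodes p75NTR, which binds all mature neurotrophins and their precursors. Vgf encodes a secreted precursor of neuropeptides and Nrn1 encodes neuritin, an extracellular protein of growing neurites, and both are known as genes that BDNF and neuronal activity induce. All probes of these genes were taken through the RefSeq transcript accession that the array gives for each probe, which found 13 probes for the 8 genes, out of 55681 probes and 20660 named genes on the array. All 13 probes passed the filter on dim signals and were tested.

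The tissue was the hippocampus of adult male Muta Mouse, a transgenic mouse strain used in mutagenicity testing, at an age of 9 weeks. The 4 BaP mice were given benzo[a]pyrene, a polycyclic aromatic hydrocarbon from incomplete combustion that binds the aryl hydrocarbon receptor (AHR), by oral gavage in olive oil at 70 mg/kg bw per day on 3 days. The 4 control mice were given olive oil alone, all were sampled 24 hr after the last dose, and 5 animals per group had been dosed. Each hippocampal RNA was labeled with Cy5 and hybridized beside a universal mouse reference RNA in Cy3, so that a level below is a log2 ratio of hippocampus over that reference and a difference is BaP minus control on the same scale. The question was whether the exposure changed the transcripts of this growth factor system.

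Of the 8 arrays, 4 carry labels that disagree. For BaP mice 3 and 4 and control mice 3 and 4, which lie together in slide row 2, the title and the source name give opposite groups. The titles were followed, since the numbers of the mice run with them, and slide row 1 holds the 4 arrays with undisputed labels. Grouping by source name was run as an alternative. The tissue was checked with marker genes: the mean log2 ratio of 9 excitatory neuron markers lay between 4.63 and 4.95 in all 8 mice, well above the reference RNA. In the same mice 7 of 8 tested genes of an erythroid list had a negative log2 fold change, and their list mean was 3.71 to 3.85 in controls and 2.97 to 3.21 in BaP mice.

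Neurotrophin genes are switched by factors that bind short motifs at their start sites, Bdnf through several alternative promoters. RefSeq (GRCm38.p6) promoter windows of 300 bases were found for 5 of the 8 genes, in all 13 windows, of which Bdnf had 7. The letters GCGTG, the core of the element that AHR binds, were searched on both strands and stood in 6 of the 13 windows, against 32.4% of all 32851 windows of that length. The whole cAMP response element TGACGTCA, bound by CREB, stood in 0 of the 13 and in 1.79% of all windows. Its shorter form TGACG, which is part of the whole element, stood in 2 of the 13 and in 20.8% of all windows. A match describes letters and not a bound site, and the files do not place the Bdnf probe against these alternative starts.

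The sequences below are the 250 bases before the start site for 4 windows that hold the AHR core, in Bdnf, which had the lowest p among the members, and in the receptors Ntrk2 and Ngfr. They run 5′ to 3′ along the gene, with matches to GCGTG and TGACG on either strand in capitals (on the other strand these read CACGC and CGTCA). Ngfr lies on the minus strand and the others on the plus strand.
Bdnf, chr2:109692186-109692435: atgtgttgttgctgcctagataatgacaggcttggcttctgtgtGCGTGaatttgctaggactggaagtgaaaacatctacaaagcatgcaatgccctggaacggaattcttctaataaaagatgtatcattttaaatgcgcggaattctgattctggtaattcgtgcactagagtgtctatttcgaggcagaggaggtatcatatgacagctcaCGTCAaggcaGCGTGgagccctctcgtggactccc
Bdnf, chr2:109694159-109694408: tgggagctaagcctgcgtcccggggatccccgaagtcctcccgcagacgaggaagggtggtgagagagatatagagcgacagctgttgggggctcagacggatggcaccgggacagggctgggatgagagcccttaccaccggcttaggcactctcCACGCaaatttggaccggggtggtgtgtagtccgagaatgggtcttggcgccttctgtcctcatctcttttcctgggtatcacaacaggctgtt
Ntrk2, chr13:58806319-58806568: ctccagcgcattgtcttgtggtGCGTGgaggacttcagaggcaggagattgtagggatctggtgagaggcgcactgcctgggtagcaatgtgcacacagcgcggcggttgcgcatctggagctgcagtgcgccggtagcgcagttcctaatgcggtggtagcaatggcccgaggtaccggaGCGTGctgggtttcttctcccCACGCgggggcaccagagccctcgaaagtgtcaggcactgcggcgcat
Ngfr, chr11:95587699-95587948: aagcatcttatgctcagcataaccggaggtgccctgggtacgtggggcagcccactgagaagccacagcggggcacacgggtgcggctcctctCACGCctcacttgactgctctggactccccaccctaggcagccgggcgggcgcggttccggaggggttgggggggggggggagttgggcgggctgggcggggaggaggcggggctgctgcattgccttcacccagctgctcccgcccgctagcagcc
The first Bdnf window holds 2 AHR cores and 1 CREB half-site, the second holds 1 core, the Ntrk2 window holds 3 cores and the Ngfr window 1. The other Bdnf windows hold no AHR core.

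No member probe met both limits of the test, a 1.5-fold change and limma's adjusted p of 0.05 or less (0 of 13, with adjusted p values of 0.50 to 0.98 over all probes). Over the whole array 3 of 32598 probes passed, or 0.0092%. At an unadjusted p of 0.05, 2 of the 13 passed, those of Bdnf and Ntf3, where 8.76% of all tested probes did. In no probe were the log2 ratios of the BaP mice all on one side of the controls (0 of 13), where 5.06% of all tested probes had groups that did not overlap. The log2 fold change was positive for 6 probes and negative for 7, with a median of -0.02, and the median of all tested probes was 0.00. The smallest p that an exact 2-sided permutation test can give for 4 mice against 4 is 0.0286.

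**Figure D1:**
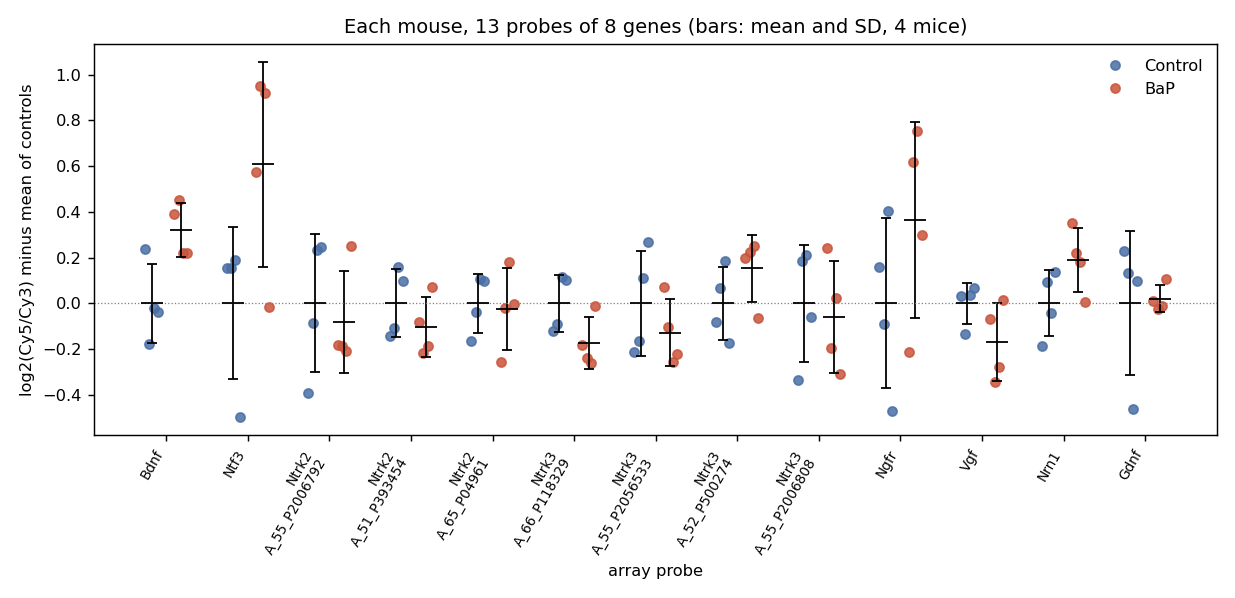
The plot gives the log2 ratio of Cy5 over Cy3 of each mouse for the 13 probes, less the mean of the 4 control mice, with bars for the mean and SD of each group. The groups overlap in all 13 probes, Ntf3 and Ngfr spread most between mice, and Bdnf overlaps only through control mouse 1.

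Bdnf was the member with the lowest p. Its log2 ratio in control mice 1 to 4 was -0.15, -0.57, -0.41 and -0.43, and in BaP mice 1 to 4 it was 0.00, 0.06, -0.17 and -0.17. All BaP mice were above control mice 2, 3 and 4, and control mouse 1 lay just above BaP mice 3 and 4. BaP over control gave a log2 fold change of 0.32, which is 1.25-fold, with a standard error of 0.10 and a 95% interval of 0.09 to 0.55. The unadjusted p was 0.0121 and limma's adjusted p was 0.499, and the exact permutation p was 0.0857 (2-sided, 4 mice against 4). Within slide row 1 the log2 fold change was 0.39 and within slide row 2 it was 0.25, while grouping by source name gave 0.07. Centered on the median in place of loess it was 0.56, where that centering moved the median of all probes to 0.17. In Cy5 alone, median-centered and chosen after seeing the data, Bdnf was 1.17 to 1.42 in controls and 1.45 to 1.75 in BaP mice. These groups did not overlap, as in 1504 of 32598 tested probes in that setting.

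Ntf3 had the largest fold change of the members. NT-3 is the ligand of TrkC and is known in the adult hippocampus mainly from granule cells of the dentate gyrus and from CA2 pyramidal cells. Control mice 1 to 4 had log2 ratios of 3.74, 3.74, 3.78 and 3.09, and BaP mice 1 to 4 had 4.16, 4.54, 4.51 and 3.57. BaP mice 1, 2 and 3 were above every control, while BaP mouse 4 lay below control mice 1, 2 and 3, which made the groups overlap. In each group mouse 4 was the lowest. The log2 fold change was 0.61 (1.52-fold, standard error 0.23, 95% interval 0.11 to 1.11), the only one of the 13 past 1.5-fold. Its unadjusted p was 0.0221, limma's adjusted p was 0.525 and the exact permutation p was 0.114 (2-sided, 4 mice against 4).

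The reference RNA gave no Ntf3 signal well above background on any array, so the ratio to the reference is only a lower bound, while the Cy5 signal of the hippocampus was well above background on all 8. In Cy5 alone, background-corrected and set against each array's median probe, the log2 level of Ntf3 was 1.32, 1.16, 1.17 and 0.67 in control mice 1 to 4. The BaP mice had 1.71, 2.01, 1.999 and 1.23, a difference of 0.66. BaP mice 1, 2 and 3 were again above every control. Without BaP mouse 4 the log2 fold change of the ratio was 0.81, and without control mouse 4 it was 0.44. It was 0.61 within either slide row, and 0.00 when the arrays were grouped by source name.

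Markers of dentate granule cells ran beside Ntf3. All 9 tested genes of a list of 10 had a positive log2 fold change (median 0.21), of which 2, Dsp and Lct, had an unadjusted p below 0.05 and none an adjusted p below 0.05. The mean log2 ratio of the list was 2.66, 2.86, 2.56 and 2.30 in control mice 1 to 4 and 2.88, 3.19, 3.11 and 2.63 in BaP mice 1 to 4. Control mouse 4 was lowest of all mice both for the list and for Ntf3, and BaP mice 2 and 3 were highest for both. The means of the oligodendrocyte, thalamus and choroid plexus lists were also highest in BaP mice 2 and 3. The list of CA2 markers had 5 of 7 genes with a positive log2 fold change, of which Amigo2 (0.48) and Rgs14 (0.36) reached an unadjusted p of 0.05 and none an adjusted p of 0.05 in limma. Its mean was 1.49, 1.38, 1.42 and 1.59 in control mice 1 to 4 and 1.59, 1.88, 1.84 and 1.37 in BaP mice 1 to 4, again highest in BaP mice 2 and 3 but lowest in BaP mouse 4. The share of genes at that unadjusted p was 22.2% of the granule cell list, 28.6% of the CA2 list and 9.44% of all named genes. Such shares were not particular to these lists. The other cell type lists ran from 0% (excitatory neurons among them) to 75% (erythroid), with 50% for CA1 and 37.5% for endothelium and pericytes. The part of these markers in the Ntf3 values was not tested. In whole hippocampus, a different number of cells of a type and a different amount of RNA per cell cannot be told apart.

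**Figure D2:**
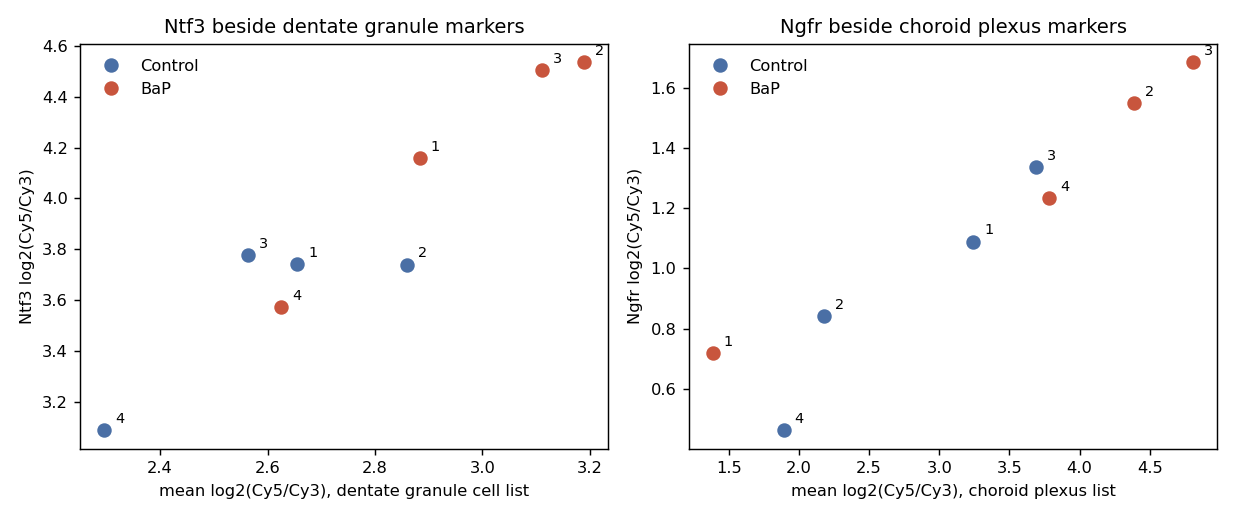
Each point is 1 mouse, numbered within its group, with the mean log2 ratio of a marker list on the horizontal axis and the log2 ratio of Ntf3 (left) or Ngfr (right) on the vertical axis. In the left panel control mouse 4 is lowest on both axes and BaP mice 2 and 3 are highest, and in the right panel BaP mice 2 and 3 are highest and control mouse 4 is lowest for Ngfr.

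Gdnf, a growth factor first known for its support of dopamine neurons, was close to the limit of detection. Its probe was well above background in Cy5 in 3 of 4 control and 2 of 4 BaP mice. The log2 ratio was -3.65, -3.74, -4.34 and -3.78 in control mice 1 to 4 and -3.86, -3.90, -3.89 and -3.77 in BaP mice 1 to 4. Control mouse 1 and BaP mice 2 and 3 were those not well above background, so their ratios are upper bounds, and control mouse 1 sets the top of the control range. Taken as measured, the BaP mice lay within that range. Its log2 fold change was 0.02 (95% interval -0.29 to 0.33, limma's adjusted p = 0.978), and its sign turned without control mouse 3, to -0.13.

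**Figure D3:**
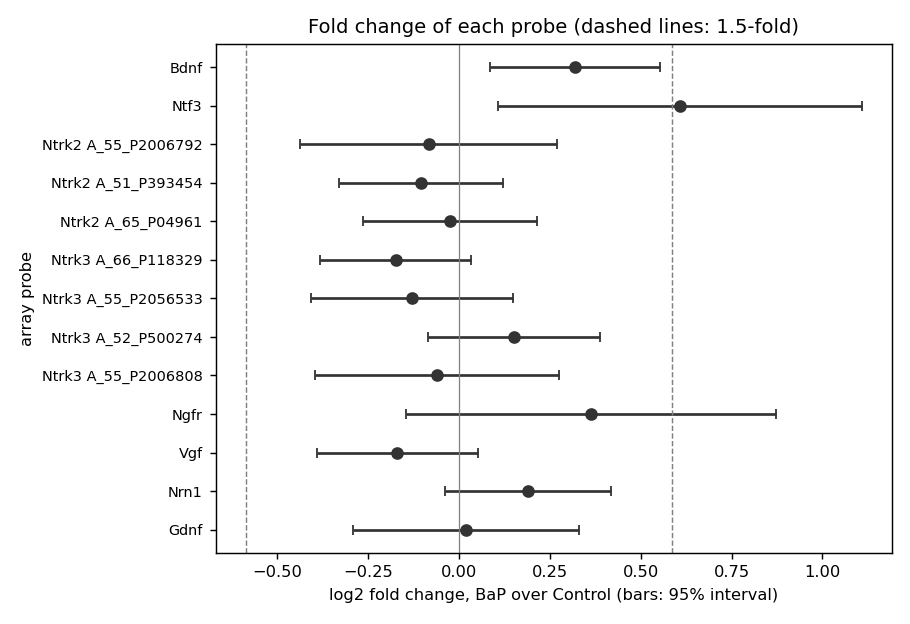
Points are the log2 fold changes of the 13 probes, BaP over control (4 mice each), with 95% intervals from limma, and dashed lines mark 1.5-fold. The intervals of Bdnf and Ntf3 leave out 0, those of the other 11 probes contain it, and Ntf3 alone has a point past 1.5-fold.

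TrkB, the BDNF receptor, exists as a full-length kinase and as truncated forms without one, the latter abundant in astrocytes. The array reads Ntrk2 with 3 probes, 2 assigned to transcript NM_001025074 and 1 to NM_008745, and the files give no probe positions, so the form that each probe reads was not established. The brightest, A_55_P2006792, had log2 ratios of 5.38, 5.69, 6.01 and 6.02 in control mice 1 to 4 and 5.59, 5.59, 5.57 and 6.02 in BaP mice 1 to 4. The BaP mice lay within the range of the controls but for BaP mouse 4, which matched the highest control. Its log2 fold change was -0.08 (95% interval -0.44 to 0.27). The other probes gave -0.10 (A_51_P393454, 95% interval -0.33 to 0.12) and -0.02 (A_65_P04961, 95% interval -0.27 to 0.22). The reference signal of A_65_P04961 was well above background on 1 of 8 arrays, so its ratio to the reference is a lower bound on the others, and in Cy5 alone (median-centered) its difference was 0.11. Limma's adjusted p was between 0.779 and 0.965 for the 3 probes. Centered on the median in place of loess, the 3 probes stood at 0.16, 0.13 and 0.16, below the median of all probes, which that centering moved to 0.17.

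TrkC, the NT-3 receptor, was read by 4 probes, 2 for each of the Ntrk3 transcripts NM_008746 and NM_182809. For the brightest, A_66_P118329 of NM_008746, control mice 1 to 4 had log2 ratios of 4.47, 4.50, 4.71 and 4.69 and BaP mice 1 to 4 had 4.41, 4.35, 4.33 and 4.58. BaP mice 1, 2 and 3 were below every control and BaP mouse 4 lay among them. This gave a log2 fold change of -0.17 (standard error 0.09, 95% interval -0.38 to 0.03), with an unadjusted p of 0.0907 and a limma adjusted p of 0.612. It was near 0 or positive in Cy5 alone (-0.0048 quantile-normalized and 0.031 median-centered), with median centering (0.087) and by source name (0.070). A_52_P500274 of NM_182809 went the other way, at 0.15 (95% interval -0.09 to 0.39), with log2 ratios of 4.33, 4.48, 4.59 and 4.23 in control mice 1 to 4 and 4.61, 4.63, 4.66 and 4.34 in BaP mice 1 to 4. It was 0.22 within slide row 1, 0.088 within slide row 2 and 0.064 by source name. The remaining probes gave -0.13 (A_55_P2056533) and -0.06 (A_55_P2006808). A_55_P2056533 differed between the slide rows, at 0.17 within slide row 1 and -0.43 within slide row 2, from which its 0.30 by source name follows. Its smallest adjusted p over all settings was 0.631 in limma. For A_55_P2006808, the reference signal was well above background on 2 of 8 arrays, so its ratio to the reference is a lower bound on the others. The interval of each of the 4 probes contains 0, and whether probes of the transcripts respond differently was not tested.

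Ngfr had the widest spread between mice among the receptors. Control mice 1 to 4 had log2 ratios of 1.09, 0.84, 1.33 and 0.46 and BaP mice 1 to 4 had 0.72, 1.55, 1.68 and 1.23. BaP mice 2 and 3 were above every control, and BaP mouse 1 was below all controls but control mouse 4. Ngfr had a log2 fold change of 0.36 (1.29-fold, standard error 0.23, 95% interval -0.14 to 0.87), with limma's adjusted p = 0.651 and an exact permutation p of 0.257 (2-sided, 4 mice against 4). It was 0.17 within slide row 1, 0.56 within slide row 2 and -0.20 when grouped by source name. Without BaP mouse 1 it was 0.56, and without control mouse 4 it was 0.21.

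The Ngfr probe and 1 Ntrk2 probe are printed 10 times on each array, which measures the scatter of spots within an array. Each mouse has 1 array, so differences in labeling and hybridization between arrays cannot be told apart from differences between mice. For Ngfr the SD between spots of an array was 0.08 to 0.16 on the log2 scale, while the SD between mice was 0.37 in controls and 0.43 in BaP mice. The range over the 8 mice was 1.22. For the repeated Ntrk2 probe, A_51_P393454, the spots of an array had an SD of 0.07 to 0.14 and the mice an SD of 0.15 in controls and 0.13 in BaP mice. The standard error of a mouse's mean over its spots was at most 0.05 for Ngfr and 0.04 for Ntrk2, and for both probes the SD between the mouse means was larger than this. Spots of 1 array are repeats of 1 RNA and were averaged, never counted as mice.

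**Figure D4:**
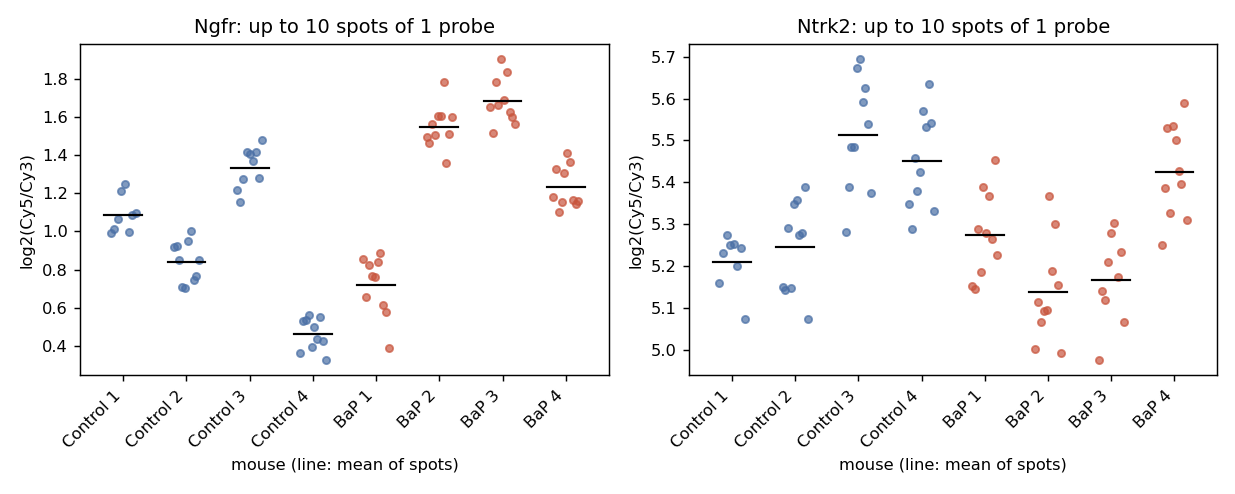
Each point is 1 spot of the repeated probe of Ngfr (left) or Ntrk2 (right) in 1 mouse, as the log2 ratio of Cy5 over Cy3, and the line is the mean of the spots of that mouse. Spots of Ngfr cluster by mouse over a range of 1.22 between mouse means, while those of Ntrk2 overlap between most mice, over a range of 0.38.

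Choroid plexus markers ran beside Ngfr. All 12 genes of the list had a positive log2 fold change (median 0.84), and 0 passed an unadjusted p of 0.05. Ttr, the transthyretin of choroid plexus, had the smallest log2 fold change of the list, at 0.04 (standard error 0.36). The list mean was 3.24, 2.18, 3.69 and 1.89 in control mice 1 to 4 and 1.39, 4.39, 4.81 and 3.78 in BaP mice 1 to 4. BaP mice 2 and 3 were highest for both the list and Ngfr, and control mouse 4 and BaP mouse 1 were the lowest pair for both. The means of the granule cell, CA2, oligodendrocyte and thalamus lists were also highest in BaP mice 2 and 3. The part of choroid plexus in the Ngfr values was not tested.

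Vgf and Nrn1, the genes known to answer BDNF and activity, had log2 fold changes of opposite sign. For Vgf, control mice 1 to 4 had log2 ratios of 4.50, 4.34, 4.51 and 4.54 and BaP mice 1 to 4 had 4.41, 4.13, 4.19 and 4.49. BaP mice 2 and 3 were below every control. The log2 fold change was -0.17 (standard error 0.10, 95% interval -0.39 to 0.05, limma's adjusted p = 0.644), and in Cy5 alone it was 0.03. For Nrn1, control mice 1 to 4 had 2.51, 2.79, 2.66 and 2.83 and BaP mice 1 to 4 had 3.05, 2.92, 2.88 and 2.71. BaP mice 1, 2 and 3 were above every control. The difference of the means was 0.19 (standard error 0.10, 95% interval -0.04 to 0.42, unadjusted p = 0.0945, limma's adjusted p = 0.616), at 0.33 within slide row 1 and 0.05 within slide row 2.

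The other genes of the pathway were followed in 6 lists, 1 probe per gene. Of 133 tested genes, limma called 0 at both limits, while 7 reached the unadjusted p of 0.05. Of all 15088 named genes, 9.44% reached that unadjusted p and 5.29% had groups without overlap. The median log2 fold change of the lists lay between -0.09 and 0.05, beside a median of 0.00 over all named genes.

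Among 11 tested ligands outside the members, 9 had a positive and 2 a negative log2 fold change, and 0 reached an unadjusted p of 0.05. Of 18 tested receptors and co-receptors, 8 were positive and 10 negative, again with 0 at an unadjusted p of 0.05. Ret, the signaling receptor of GDNF, had -0.33 (standard error 0.17, unadjusted p = 0.0804, limma's adjusted p = 0.601), at -0.50 within slide row 1 and -0.15 within slide row 2, and its partner Gfra1 had -0.10 (standard error 0.14). Sort1, which encodes sortilin, the partner of p75NTR for neurotrophin precursors, had -0.04 (standard error 0.11).

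Of 14 tested genes for the processing and sorting of neurotrophins and VGF, 2 were positive and 12 negative, with a median of -0.09. Plat, the tissue plasminogen activator that starts the cleavage of BDNF precursor by plasmin, was at -0.24 (standard error 0.09, limma's adjusted p = 0.529), with every BaP mouse below every control. Chgb, a granin of secretory granules named here after its values were seen, had -0.15 (limma's adjusted p = 0.582), also without overlap. Centered on the median in place of loess, Plat stood at 0.03 and Chgb at 0.10, where all probes had a median of 0.17.

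Of 37 tested adaptors and kinases of TRK signaling, 21 were positive and 16 negative. Braf, a kinase upstream of ERK, had 0.21 (standard error 0.08, limma's adjusted p = 0.537), with every BaP mouse above every control, and 0.08 by source name. Sh2b2, an adaptor named after its values were seen, had -0.28 (limma's adjusted p = 0.515), with overlap. Of 24 genes acting on Bdnf transcription, 7 were positive and 17 negative. Bhlhe40, a repressor of the basic helix-loop-helix family, had 0.40 (standard error 0.11, unadjusted p = 0.00342, limma's adjusted p = 0.478), with every BaP mouse above every control. It was 0.42 and 0.38 within slide rows 1 and 2, and 0.02 by source name. Ehmt2, a histone methyltransferase named after its values were seen, had -0.20 (limma's adjusted p = 0.569).

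Of 29 tested genes induced by activity and BDNF, 10 were positive and 19 negative, with a median of -0.05. Fos, an immediate early transcription factor, had -0.61 (standard error 0.20, unadjusted p = 0.011, limma's adjusted p = 0.498), with log2 ratios of -3.25 to -2.46 in controls and -3.80 to -3.21 in BaP mice. Its relative Fosb had -0.27 (limma's adjusted p = 0.564), and both were named after their values were seen. Over the alternatives other than leaving a mouse out, Fosb ran from -0.35 to -0.00035. The groups overlapped narrowly for Fos, which was at -0.92 within slide row 1 and -0.29 within slide row 2. These were the 2 genes of the list that reached an unadjusted p of 0.05.

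**Figure D5:**
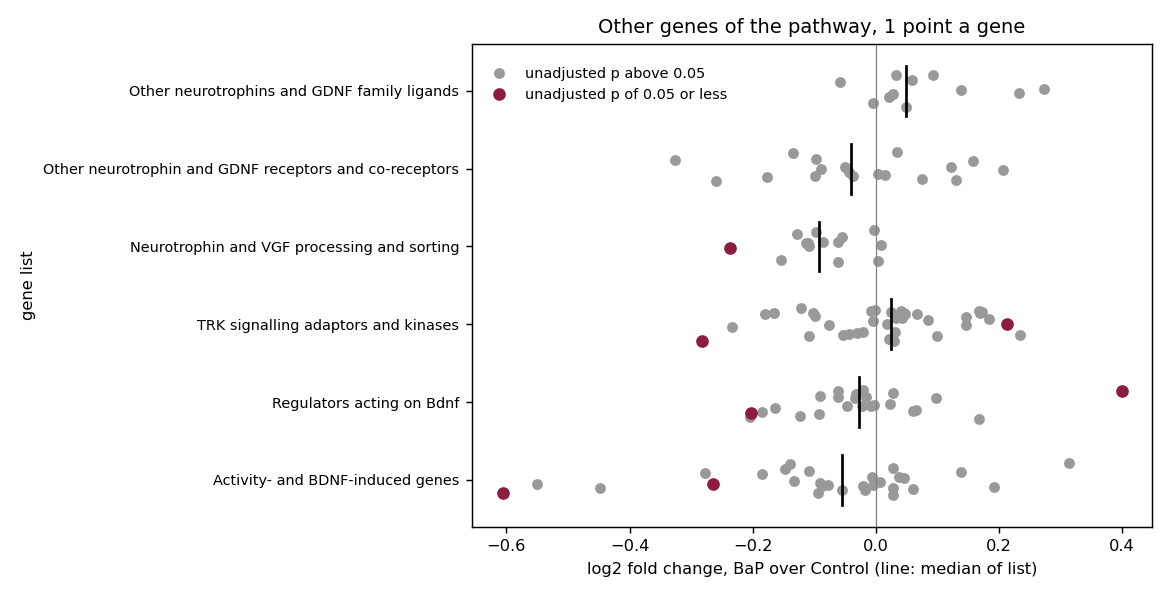
Each point is the log2 fold change of 1 gene, BaP over control (4 mice each), in 6 lists of pathway genes that leave out the members, with a black line at the median of the list. Red points, 7 genes in all, reached an unadjusted p of 0.05, and the medians lie between -0.09 and 0.05.

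As a description, the genes whose pattern over the 8 mice was most like that of each member were read from 14872 genes by Pearson r. These values include the difference between the groups, all from 1 slide, and carry no test. Bdnf ran most like Glo1 (r = 0.962), a glyoxalase, and Lsm8 (r = 0.962). Ntf3 ran most like Sec63 (r = 0.982), a protein of the endoplasmic reticulum, and Ttc9 (r = 0.976). Ntrk2 ran most like Tpbg (r = 0.971) and Grm8 (r = 0.963), a glutamate receptor, and Ntrk3 most like Cpne6 (r = 0.989), a copine, and Ppp2r2c (r = 0.986), a subunit of protein phosphatase 2A. Ngfr ran most like Slc29a4 (r = 0.994), a monoamine transporter, and Tgfbi (r = 0.990), a matrix protein, and 264 genes had an r above 0.9 with it, more than with any other member. Vgf ran most like Lst1 (r = 0.966) and Irf2bpl (r = 0.959), Nrn1 most like Zfp758 (r = 0.949) and Armh4 (r = 0.944), and Gdnf most like Wdhd1 (r = 0.938) and Cep128 (r = 0.936). For Gdnf, close to the limit of detection and lowest in control mouse 3, Spearman's rho was only 0.74 and 0.64.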

How the data were processed

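The authors deposited the scanner output of 8 two-color Agilent arrays, extracted with Agilent Feature Extraction 11.0.1.1: the intensity of each spot in Cy5 and Cy3 as medians, background, flags and a log10 ratio. They also deposited a table of LOWESS-normalized log2 ratios. Here limma 3.58.1 (R 4.3.3) corrected the spot medians for background by normexp, with 50 as the offset. Controls were then dropped, outlier spots were set to missing, and log2 ratios were normalized by loess within arrays and averaged per probe. Spot means had been planned where deposited. Per array, the median Cy5 signal was 108 to 174 over a background of 67 to 71, and 56.6% to 67.4% of 59305 spots were well above background. Control mouse 1 had 1483 outlier spots and the others 310 to 371.

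The test took the 32598 probes whose Cy5 signal was well above background in 4 or more of the 8 mice. It used lmFit and eBayes of limma with p-values adjusted by Benjamini-Hochberg, and single values with exact permutation over 70 assignments. The mice are separate animals, and their number limits the precision. Probes were named through RefSeq accessions (27235 of 28685 named), and the brightest tested probe by mean Cy5 stood for a gene in the lists. The members and gene lists were chosen with earlier results of these data known. Named genes were all members, their binding partners (Sort1, Ret and Gfra1; others are not reported here), up to 5 per list with an unadjusted p of 0.05 or less and no overlap, and the 2 most like each member. Chgb, Sh2b2, Ehmt2, Fos, Fosb and the single marker genes Dsp, Lct, Amigo2, Rgs14 and Ttr were named after their values were seen. The fit was tested on simulated data. Summaries used Python 3.11.15, pandas 2.3.3, numpy 2.4.6 and scipy 1.17.1. Alternatives covered background correction, normalization, filters, the Cy5 channel alone, blocks, slide rows, the test, the conflicting labels and each mouse left out. Probe sequences and RNA-seq data were not used here.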

Additional observations from a re-analysis of the deposited data

Results flagged for a closer look

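Over the members and the pathway genes named, 50 groups of 4 mice were examined for a mouse far from the other 3, by the gap to its neighbor over the range of the group, and 4 passed Dixon's limit, where chance gives 2.5. For Ntf3, control mouse 4 had a log2 ratio of 3.09, with the other controls at 3.74 to 3.78 (gap over range 0.948). For Ntrk2 probe A_55_P2006792, BaP mouse 4 had 6.02, with the other BaP mice at 5.57 to 5.59 (0.95). For Sort1, control mouse 1 had 6.02, with the others at 5.75 to 5.77 (0.937). For Chgb, control mouse 3 had 8.72, with the others at 8.83 to 8.85 (0.844).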

How the results depend on the processing

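No member probe and no pathway gene passed the adjusted threshold in any of the 25 settings. The number of all probes that passed, 3, became 0 with Feature Extraction's processed signals, within slide row 1, within slide row 2, with the gene-wise F test and with groups by source name. It was 5 without a filter, 6 in Cy5 alone (quantile-normalized), 7 in Cy5 alone (median-centered, chosen after seeing the data) and 6 with an intensity trend and robust variance, and 1 to 3 with each mouse left out (1 without control mouse 1, 3 or 4 or BaP mouse 2). Member probes at an unadjusted p of 0.05, 2 in the main setting, were 1 with processed signals, within either slide row, with the F test and with source names, 4 with median centering, and 1 to 5 with each mouse left out (5 without BaP mouse 4, and 1 without BaP mouse 2, BaP mouse 3 or control mouse 4). Pathway genes at that p went from 7 to 18 with median centering, which moved the median of all probes to 0.17. The causes were not tested. Bdnf, Ntf3, Nrn1 and Ntrk3 probe A_52_P500274 did not turn negative in any of the 25 settings. By source name, where a value near 0 follows from slide rows that agree by title, Ntf3 was at 0.00019, Bdnf at 0.071 and Bhlhe40 at 0.022.

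Replicate numbers did not pair the mice: the deviations of same-numbered mice correlated at -0.35, 0.03, -0.01 and -0.01. With the number as a replicate block, 3 probes passed and 0 of the members, and Ntf3 had an unadjusted p of 0.000555 and limma's adjusted p = 0.517.

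Signs turned under some settings, as log2 fold changes. With median centering in place of loess, Ntrk2 gave 0.16 (A_55_P2006792), 0.13 (A_51_P393454) and 0.16 (A_65_P04961), Ntrk3 0.087 (A_66_P118329), 0.10 (A_55_P2056533) and 0.15 (A_55_P2006808), Vgf 0.10, Sort1 0.20, Plat 0.028, Chgb 0.10 and Ehmt2 0.075. In Cy5 alone, quantile-normalized, the same Ntrk2 probes gave 0.072, 0.078 and 0.060, Vgf 0.014, Sort1 0.064, Gfra1 0.042 and Chgb 0.083. In Cy5 alone, median-centered, they gave 0.11, 0.13 and 0.11, Ntrk3 A_66_P118329 0.031, Vgf 0.027, Gdnf -0.057, Sort1 0.12, Gfra1 0.00076 and Chgb 0.11. Grouped by source name, Ntrk2 gave 0.13 (A_55_P2006792) and 0.082 (A_51_P393454), Ntrk3 0.070, 0.30 and 0.16 in the order above, Ngfr -0.20, Vgf 0.015, Gdnf -0.21, Sort1 0.046, Gfra1 0.12 and Sh2b2 0.030. Within slide row 1, Ntrk2 A_55_P2006792 gave 0.052, Ntrk3 A_55_P2056533 0.17 and A_55_P2006808 0.10, Gdnf -0.19, Sort1 0.0091 and Gfra1 0.024. Without background correction, Ntrk2 A_65_P04961 gave 0.049, Ntrk3 A_55_P2006808 0.020, Gdnf -0.070 and Sort1 0.015. With the authors' log2 ratios, Ntrk2 A_65_P04961 gave 0.055, Ntrk3 A_55_P2006808 0.019 and Gdnf -0.087. With processed signals, Ntrk3 gave 0.25 (A_55_P2056533) and 0.27 (A_55_P2006808). With each mouse left out, Ntrk2 A_65_P04961 ran from -0.093 to 0.053, Ntrk3 A_55_P2006808 from -0.17 to 0.023, Gdnf from -0.13 to 0.10 and Sort1 from -0.11 to 0.029. Without a turn of sign, Ntrk2 A_55_P2006792 ran from -0.21 (without control mouse 1) to -0.00076 (without control mouse 4), and A_51_P393454 from -0.16 (without BaP mouse 4) to -0.051 (without control mouse 3). Ntrk3 A_55_P2056533 ran from -0.20 (without control mouse 1) to -0.038 (without control mouse 4), A_52_P500274 from 0.094 (without control mouse 4) to 0.22 (without BaP mouse 4), and Vgf from -0.23 (without BaP mouse 4) to -0.11 (without BaP mouse 2). Gfra1 ran from -0.20 (without control mouse 1) to -0.011 (without control mouse 2). Signal over background limits Gdnf in Cy5, and Ntf3, Ntrk2 A_65_P04961 and Ntrk3 A_55_P2006808 in the reference channel.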
